A study of Mus musculus with 2 samples.

Results

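The regions described here are promoter peaks of the distal femur that had no counterpart in the proximal femur. They were chosen by their positions in the peak lists of ATAC-seq, an assay in which the Tn5 transposase cuts accessible DNA, so that sequenced fragments pile up into peaks over open chromatin. A distal peak was included if it overlapped no proximal peak by 1 bp or more and if its nearest edge lay within 1 kb of a transcription start site of the GENCODE M21 annotation (mm10 build). This rule gave 1011 regions, which were 7.68% of the 13159 distal peaks that lay within 1 kb of a start site. The same rule applied the other way round gave 668 promoter peaks called only in the proximal list, or 5.22% of 12786. Over the whole distal list of 27958 peaks, 4194 (15%) lacked a proximal overlap, and 3183 of these were farther than 1 kb from every start site.

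Both lists came from FVB (FVBNJ) mouse embryos at E15.5, in mid to late gestation. Growth plate chondrocytes were released with collagenase from the cartilage of the femur ends. Every pool held cells of 1 end from littermates, about 8 embryos. Libraries were made from 50000 cells, and the 2 biological replicates of each end had been combined by the authors into 1 list of reproducible peaks, with 28257 peaks in the proximal and 27958 in the distal list. The lists hold positions without heights, and depth is unknown from them, so no value below carries a replicate error and no test between femur ends was possible. The absence of a peak from the proximal list means that no reproducible peak was called there, which is not a measure of closed chromatin. Fewer cells with an open promoter and weaker opening in every cell cannot be told apart in such pooled material.

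Promoters are the DNA around transcription start sites, where general transcription factors and RNA polymerase II assemble. Many mammalian promoters lie in CpG islands, stretches rich in G, C and the otherwise depleted CpG dinucleotide, and are accessible in most cell types. Promoters poor in CpG more often belong to genes used in few tissues. Many genes also have alternative start sites, so that a gene can lose or gain accessibility at one of its promoters while another stays open. In growth plate cartilage, chondrocytes secrete a matrix of fibrillar collagens and proteoglycans under the control of SOX transcription factors, and hedgehog, PTHrP, BMP, TGF-beta, Wnt, FGF and Notch signals regulate their proliferation and maturation.

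To show what such regions look like in sequence, stretches of up to 200 bases were read from the GRCm38 (mm10) assembly for genes of the signalling, matrix and cell type lists below. They were taken from the widest members at main start sites of genes without a promoter peak common to both ends, outside annotated exons and as near to the start as possible. Each is written 5′ to 3′ on the strand of its gene, and capitals mark matches to any of 12 short promoter motifs. At Wnt16, the run chr6:22288027-22288226 lay upstream of the start on the plus strand and held 2 CCAAT boxes. At Col11a2, chr17:34039237-34039436 lay upstream on the plus strand and held 2 GC boxes (GGGCGG). At Tcf7l2, chr19:55741620-55741819 ended 1 base before the start on the plus strand and held 5 GC boxes, all read from the opposite strand, at a G+C content of 72.5%. At Tek, chr4:94739089-94739288 lay upstream on the plus strand, at a G+C content of 51.5% and with 1 CpG. At Tgfb2, chr1:186706157-186706222 lay upstream on the minus strand, in an intron of the noncoding gene Gm29491, and was 66 bases long because annotated exons take up most of the upstream part of the peak. At Fzd6 and Col9a2 the nearest exon-free runs lay downstream of the start on the plus strand, at chr15:39006490-39006674 in an intron of Fzd6 and at chr4:121039787-121039986 in an intron of Col9a2. The runs of Tek, Tgfb2, Fzd6 and Col9a2 held none of the 12 motifs.
Wnt16: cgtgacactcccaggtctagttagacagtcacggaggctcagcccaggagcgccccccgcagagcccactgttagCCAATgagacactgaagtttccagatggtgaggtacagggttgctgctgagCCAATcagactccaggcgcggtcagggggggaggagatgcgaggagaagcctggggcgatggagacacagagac
Col11a2: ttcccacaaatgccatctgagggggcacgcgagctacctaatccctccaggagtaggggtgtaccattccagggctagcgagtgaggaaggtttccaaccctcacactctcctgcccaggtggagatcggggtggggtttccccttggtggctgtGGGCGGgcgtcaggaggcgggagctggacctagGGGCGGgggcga
Tcf7l2: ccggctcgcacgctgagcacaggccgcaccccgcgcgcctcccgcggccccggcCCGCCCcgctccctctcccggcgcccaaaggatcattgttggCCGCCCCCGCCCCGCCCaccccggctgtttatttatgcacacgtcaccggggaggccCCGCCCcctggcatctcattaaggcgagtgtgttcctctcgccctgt
Tek: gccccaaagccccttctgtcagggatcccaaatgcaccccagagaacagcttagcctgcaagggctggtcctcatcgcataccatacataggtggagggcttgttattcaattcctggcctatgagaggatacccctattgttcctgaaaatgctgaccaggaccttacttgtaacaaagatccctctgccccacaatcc
Tgfb2: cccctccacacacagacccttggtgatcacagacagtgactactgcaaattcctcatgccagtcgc
Fzd6: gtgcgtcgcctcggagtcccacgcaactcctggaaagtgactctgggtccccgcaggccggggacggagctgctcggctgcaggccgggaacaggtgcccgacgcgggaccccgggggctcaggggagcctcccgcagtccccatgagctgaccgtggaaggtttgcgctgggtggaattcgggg
Col9a2: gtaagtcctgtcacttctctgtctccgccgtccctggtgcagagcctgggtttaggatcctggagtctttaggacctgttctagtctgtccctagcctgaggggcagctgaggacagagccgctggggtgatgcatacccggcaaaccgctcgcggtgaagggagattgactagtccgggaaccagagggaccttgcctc

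The runs differed in their CpG content. The 200 bases of Tcf7l2 held 23 CpG dinucleotides and the 185 bases of Fzd6 held 17, against 8 at Wnt16, 9 at Col11a2, 8 at Col9a2 and 1 each at Tek and Tgfb2. The CpG content of all starts is given further on.

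The genes of cartilage matrix proteins were among those with distal-only promoter peaks. Of 23 autosomal genes on a list of cartilage matrix components, 5 had such a peak and 0 had a proximal-only one, beside 3.84% of all 20807 autosomal protein-coding genes with a distal-only and 2.22% with a proximal-only promoter peak. The main promoter of Col11a2, which encodes a chain of the fibrillar collagen XI, was covered by a distal peak of 1165 bp that reached from -1017 to 147 bp relative to the start (negative upstream). The nearest proximal peak was 6338 bp away. The main promoter of Col9a2, a chain of collagen IX on the surface of cartilage fibrils, was covered by a distal peak of 907 bp. Here a peak present in both lists lay close by, in the gene body, between 1204 and 1999 bp downstream of the start in the distal list and between 1120 and 1981 bp in the proximal list. It was just beyond the 1 kb limit and was not counted as a promoter peak. Col27a1, a fibrillar collagen of cartilage, had the same arrangement, with a distal-only peak of 355 bp over its main start and a shared peak from 927 to 1635 bp downstream, inside the limit. Comp, the pentameric matrix protein that binds collagens, had a peak of 496 bp that spanned -596 to -101 bp from its start. At Snorc, which encodes a small membrane proteoglycan of chondrocytes, a wide peak of 1257 bp covered an alternative start. For none of these 5 genes except Col27a1 did the proximal list hold an overlapping or other promoter peak within 1 kb of any start. Of 15 chondrocyte marker genes, 10 had a promoter peak in both lists, among them Col2a1, Acan and Sox9, and 4 had a distal-only one (Col9a2, Col11a2, Comp and Sox6, the last also with a shared promoter peak). Sox5 had a proximal-only promoter peak, and Matn1 had none.

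**Figure D1:**
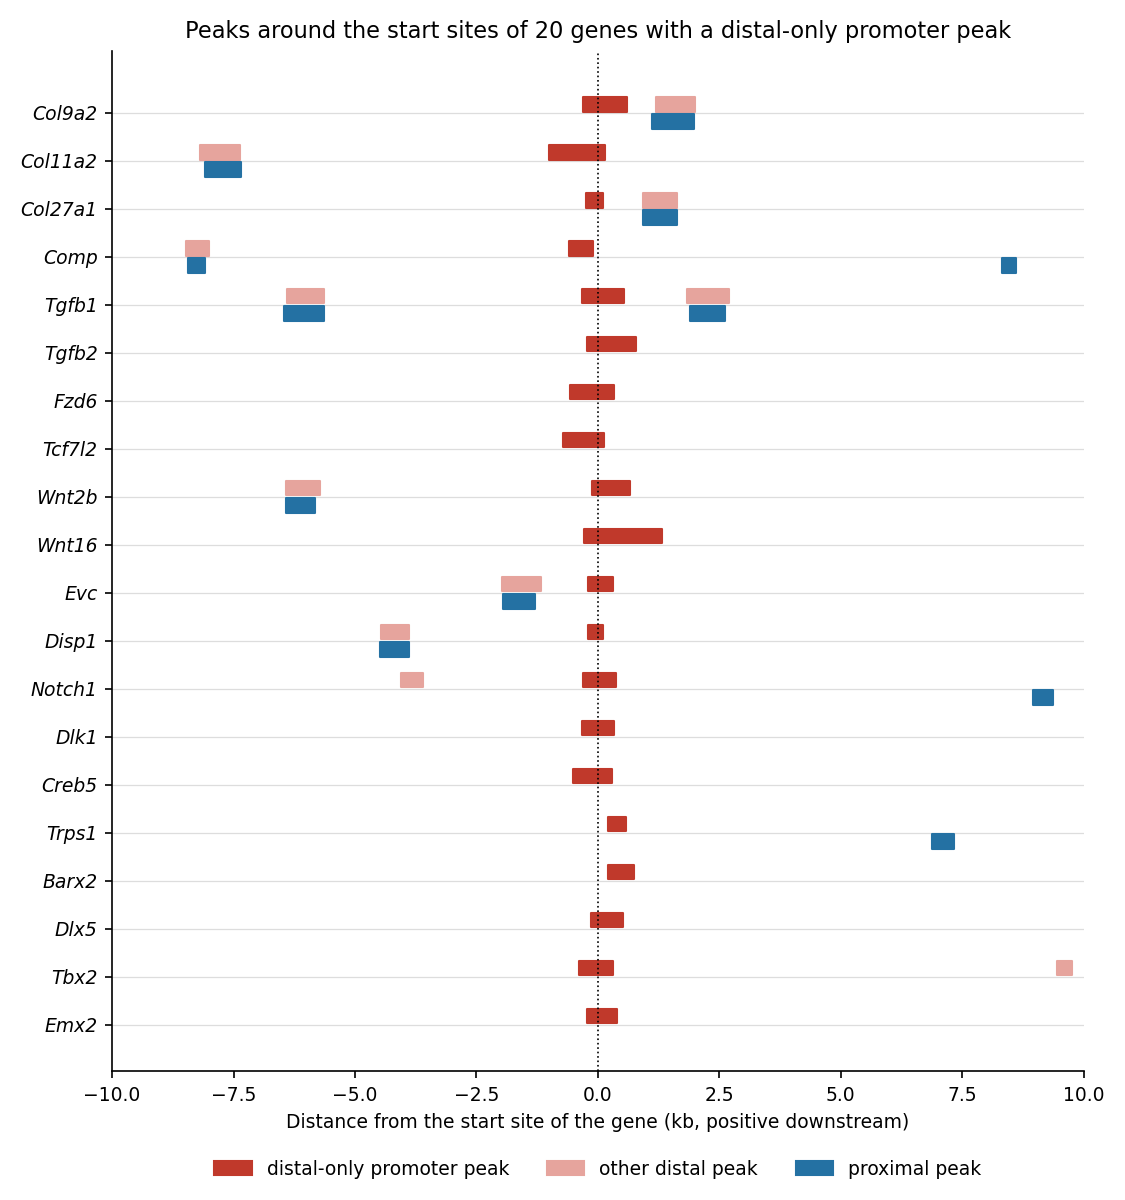
Peaks of both lists around the start sites of 20 genes with a distal-only promoter peak, by distance from the start (kb, positive downstream). Dark red bars are the distal-only promoter peaks, light red bars other distal peaks and blue bars proximal peaks. Wnt16, Tcf7l2 and Fzd6 show no other peak in the window, while Col9a2, Col27a1, Tgfb1 and Evc have a peak of both lists within 3 kb of the start.

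Among 24 chondrocyte transcription factor genes, 4 (16.7%) had a distal-only and 2 (8.33%) a proximal-only promoter peak, against 3.84% and 2.22% of all protein-coding genes. Creb5, a leucine zipper factor of the ATF family known from joint cartilage, had a distal-only peak of 813 bp over its main start, and the nearest proximal peak was 285370 bp away. Within the gene and 50 kb on either side, the distal list held 9 peaks at Creb5, 6 of them without a proximal overlap, while the proximal list held 3. Counted in the same way, Sox6 had 4 distal and 6 proximal peaks and Trps1 5 and 6. Barx2, a homeobox gene expressed in skeletal condensations, had a peak of 527 bp starting 212 bp downstream of its main start. Sox6, which acts together with Sox5 and Sox9 in chondrocyte differentiation, had a distal-only peak of 409 bp upstream of an alternative start, 213682 bp from the nearest promoter peak of this gene common to both ends. Trps1, a GATA-type repressor mutated in a skeletal dysplasia, differed from the others in that it also had a proximal-only promoter peak. The distal-only peak of Trps1 lay between 198 and 585 bp downstream of the main start, and the nearest proximal peak, itself without a distal overlap, lay between 6874 and 7330 bp downstream of this start. Dlx5, a homeobox regulator of chondrocyte maturation and osteoblasts, was the only gene of 25 on the hypertrophy and osteoblast list with a distal-only promoter peak, of 676 bp. This list also had 1 gene with a proximal-only promoter peak, and its distal-only share of 4% was near the 3.84% of all protein-coding genes.

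Genes of secreted signals and their receptors followed. In the Wnt pathway, secreted ligands bind Frizzled receptors and free beta-catenin to act with TCF factors. Of its 57 genes, 5 (8.77%) had a distal-only and 1 (1.75%) a proximal-only promoter peak. The shares over all protein-coding genes were 3.84% and 2.22%. The 5 genes were the ligand gene Wnt2b (795 bp), the receptor gene Fzd6 (914 bp), the E3 ligase gene Rnf43 (450 bp), whose product removes Frizzled receptors from the membrane, Ctnnb1, which encodes beta-catenin, and the TCF factor gene Tcf7l2 (848 bp). The peaks of Wnt2b, Fzd6, Rnf43 and Tcf7l2 lay at main starts. The peak of Ctnnb1 was 325 bp wide and lay upstream of an alternative start, 24392 bp from a promoter peak of the gene present in both lists. A further Wnt ligand, Wnt16, was counted here with the 25 joint, tendon and perichondrium genes. It was the only one of them with a distal-only promoter peak (4%, near the 3.84% of all protein-coding genes). Wnt16 had the third widest distal-only promoter peak at a protein-coding gene (1589 bp), from -277 to 1311 bp relative to the start, and the nearest proximal peak was 57797 bp away.

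Of 50 genes of the BMP and TGF-beta pathway, 4 (8%) had a distal-only and 2 (4%) a proximal-only promoter peak, against 3.84% and 2.22% of all protein-coding genes. The ligand gene Tgfb2 had a peak of 1023 bp at its main start, and the nearest proximal peak was 15728 bp away. The ligand gene Tgfb1 had a peak of 860 bp at its main start as well, but also a promoter peak present in both lists 1294 bp downstream. Ltbp3, which encodes a binding protein that holds latent TGF-beta in the matrix, and Chrdl2, a BMP antagonist of the chordin family, had peaks of 481 and 381 bp upstream of their main starts. Of 20 hedgehog and PTHrP pathway genes, 3 (15%) had a distal-only and 0 a proximal-only promoter peak. Hhat, the acyltransferase that adds palmitate to hedgehog ligands, had a peak of 319 bp upstream of an alternative start, with a shared promoter peak of the gene 8391 bp away. Disp1, which releases the lipid-modified ligand from cells, had a peak of 307 bp over its main start. Evc, a ciliary protein of the hedgehog response that is mutated in a dwarfism with short limbs, had a peak of 511 bp over its main start, with a shared peak in the distal list from -1968 to -1181 bp. The Notch pathway had 3 of 25 genes (12%) with a distal-only and 1 (4%) with a proximal-only promoter peak. Notch1, a receptor, and Dlk1, a membrane protein that resembles Notch ligands, had peaks of 680 and 672 bp over their main starts. Heyl, a repressor induced by Notch, had a distal-only peak at its main start (661 bp) and another at an alternative start (814 bp). Of 47 genes of FGF, IGF and natriuretic peptide signalling, the ligand gene Fgf2 and the ETS factor gene Etv4 had distal-only promoter peaks. This share of 4.26% was near the 3.84% of all protein-coding genes, and 3 genes (6.38%) had proximal-only ones. The peaks of Fgf2 and Etv4 were both at alternative starts, and each gene had a shared promoter peak elsewhere, 31076 and 11623 bp away.

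Of 49 limb and femur patterning genes, 2 had a distal-only promoter peak (4.08%, near the 3.84% of all protein-coding genes). A proximal-only one was present at 7 (14.3%, against 2.22% of all protein-coding genes). Tbx2, a T-box repressor, had a distal-only peak of 714 bp over its main start and a further distal-only peak from 9446 to 9766 bp downstream, and the proximal list held 0 peaks within 50 kb of this gene. Emx2, a homeobox gene needed for the shoulder girdle, had a peak of 613 bp over its main start. Of 39 autosomal Hox genes, which give positional identity along the body axis and the limb, 3 (7.69%) had a distal-only promoter peak and 1 (2.56%) a proximal-only one. The shares over all protein-coding genes were 3.84% and 2.22%. The genes with a distal-only one were Hoxd1 (503 bp), Hoxc13 (492 bp) and Hoxa4 (434 bp), none of which is on the limb and femur patterning list.

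**Figure D2:**
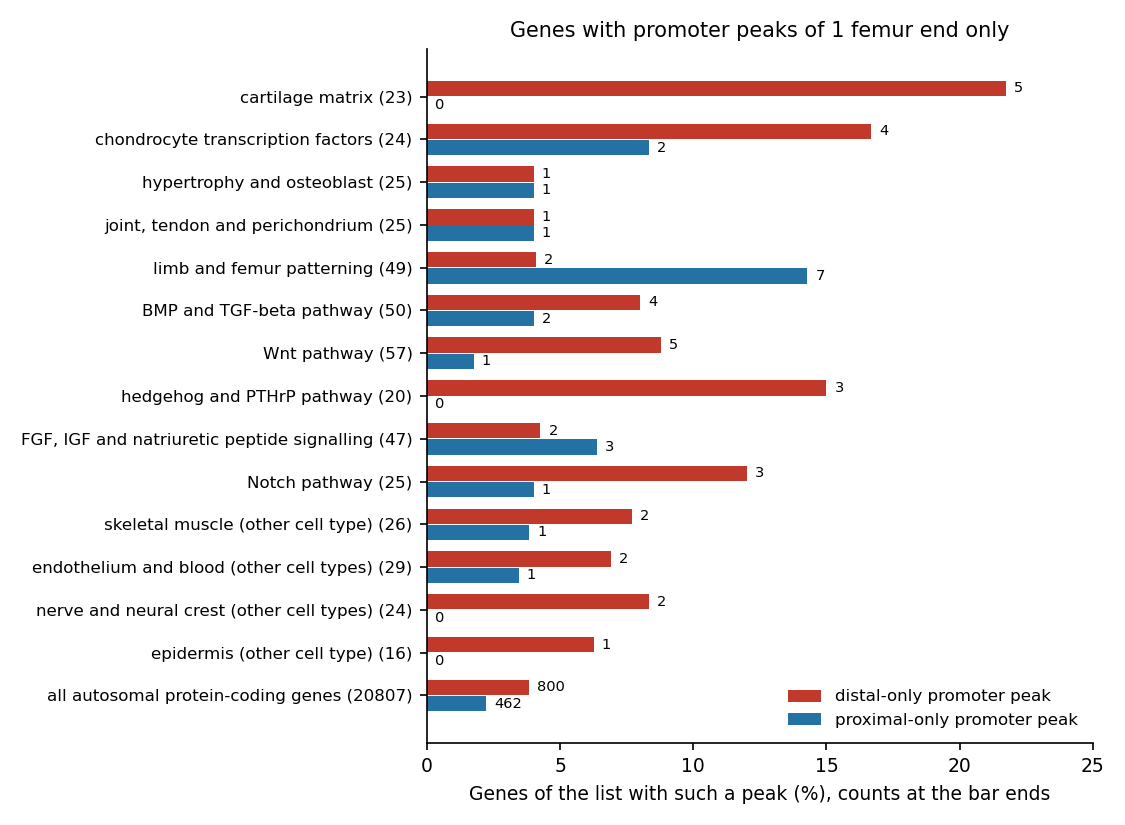
Share of the autosomal genes on each list (number in brackets) with a distal-only (red) or proximal-only (blue) promoter peak, with the number of genes at the end of each bar. The cartilage matrix bar stands at 5 of 23 genes against 0, the limb patterning bars at 2 against 7 of 49, and all protein-coding genes at 3.84% and 2.22%.

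Markers of other cell types that a dissected femur end could hold were also found among the regions. Of 26 skeletal muscle genes, 2 had a distal-only promoter peak (Myl1, a myosin light chain, and Tnni2, a fast troponin), 1 a proximal-only one, 2 a shared one, and 21 none, including Myod1 and Myf5. Of 29 endothelial and blood genes, 2 had a distal-only promoter peak (Tek, the receptor of angiopoietins, and Gata2, which also had a shared one 4254 bp away), 1 a proximal-only one, 8 a shared one and 19 none. Of 24 nerve and neural crest genes, 2 had a distal-only promoter peak (Nefl, a neurofilament chain, among them), 0 a proximal-only one and 11 a shared one. Of 16 epidermis genes, Krt1 had a distal-only promoter peak at an alternative start and 4 genes had a shared one. These shares were between 6.25% and 8.33% for the distal-only peaks, against 3.84% over all protein-coding genes. Hypertrophic chondrocyte markers (5 genes) and osteoblast markers (7 genes) had 0 distal-only and 0 proximal-only promoter peaks. The part of other cell types in the set was not tested.

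Larger gene families lay on either side of the 3.84% of all protein-coding genes with a distal-only promoter peak. Potassium channel genes (symbols beginning with Kcn) had one at 9 of 92 genes (9.78%) and a proximal-only one at 3. Collagen genes had one at 6 of 43 (14.0%), which besides the 3 cartilage collagens included Col8a2, Col18a1 and Col22a1, and a proximal-only one at 1. Solute carriers had a distal-only promoter peak at 21 of 358 genes (5.87%) and a proximal-only one at 14, and genes named Zfp, for zinc finger proteins, at 11 of 385 (2.86%) and at 4. Histone genes (67), Nduf genes of respiratory complex I (32) and olfactory receptor genes (1128) had 0 distal-only promoter peaks, and 0, 1 and 4 of them had a proximal-only one. A shared promoter peak was present at 62 of the histone genes and 30 of the Nduf genes, but at only 2 of the olfactory receptor genes. For ribosomal protein genes the counts were small. Of 92 Rpl and Rps genes of the cytoplasmic ribosome, 1 had a distal-only promoter peak (1.09%) and 2 a proximal-only one (2.17%, near the 2.22% of all protein-coding genes). Of 78 Mrpl and Mrps genes of the mitochondrial ribosome, 2 (2.56%) had a distal-only and 0 a proximal-only promoter peak. The main start of Rpl19, a protein of the large ribosomal subunit, was covered by a distal peak of 664 bp, and the nearest proximal peak was 8698 bp away. Mrpl58 and Mrpl48 also had distal-only peaks at main starts, and Mrpl48 had a shared promoter peak 7356 bp away.

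Of the 1011 regions, 818 (80.9%, 95% Wilson interval 78.4 to 83.2%) had a protein-coding gene at the nearest start. Intervals here and below cover counting error only. This share was 10.7 percentage points above that of proximal-only promoter peaks (70.2%, 95% Newcombe interval of the difference 6.502 to 14.95 points) and differed by -10.4 points from that of the 12148 distal promoter peaks that overlapped a proximal peak (91.3%, interval -13.0 to -8.03 points), called shared promoter peaks below. In a wide-peak setting, peaks narrower than the median of their list were dropped from both lists before overlaps were called. A wide distal peak over a narrow proximal one then counts as distal-only, so the 1010 regions of this setting are not a subset of the 1011. With these regions the difference from proximal-only peaks was 3.66 points (interval 0.59 to 6.85 points). Long noncoding RNA genes made up 121 regions (12.0%, against 16.8% of proximal-only and 5.14% of shared promoter peaks), of which 70 were lincRNAs and 34 antisense transcripts. There were 34 pseudogenes, 28 of them processed copies, 18 small RNA genes, 18 genes of the class TEC, whose existence awaits experiments, 1 immunoglobulin and 1 T cell receptor segment. The widest region of all, of 2469 bp, covered the start of Muc19, which M21 places among the noncoding genes, and the nearest proximal peak was 141649 bp away.

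The regions belonged to 993 genes, of which 18 had 2 regions each and none more. At Kcng3, a modifier subunit of potassium channels, and at Rnf144b, an E3 ligase, both peaks belonged to the same start. Others marked separate promoters of 1 gene. At Trpv4, a calcium channel of chondrocytes mutated in skeletal dysplasias, the main start was covered by a peak of 588 bp and an alternative start by one of 593 bp. At Adamtsl2, a matrix protein that regulates TGF-beta availability, the main start was covered by a peak of 426 bp and another peak of 547 bp lay upstream of an alternative start. At Zeb1, a zinc finger repressor, the widths were 1127 bp at the main and 458 bp at the alternative start. Ank1, Hr and Pou4f1 also had a distal-only peak at the main and at an alternative start, and none of these 6 genes had a promoter peak common to both lists. There were 20 genes with both a distal-only and a proximal-only promoter peak at the nearest start.

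Among the small RNA genes were 10 miRNA genes, 9 of which had a mature sequence in RefSeq (GRCm38.p6 build). In 4 of them the mature sequence itself lay inside the peak. Mir199a-1 was one of these 4, with a peak of 802 bp at chr9:21496366-21497167 over the start of the hairpin. The annotated start of a miRNA gene is that of its hairpin, which need not be where transcription begins. Such a peak meets the rule without showing a promoter. Dnm3os is the noncoding host transcript of Mir199a-2, which gives the same mature miRNAs, and it also had a distal-only promoter peak, from -873 to -423 bp relative to its start and 613 bp before the Mir199a-2 hairpin. This second region was among those nearest to a proximal peak, with a gap of only 39 bp, and Dnm3os had a shared promoter peak 44 bp away. The arms of Mir199a-1, known from mesenchymal tissues including cartilage, lie on the minus strand at chr9:21496537-21496559 (5p) and chr9:21496498-21496519 (3p). They are shown because both lie within the distal-only peak, with the seed (bases 2 to 8) in capitals.
mmu-miR-199a-5p: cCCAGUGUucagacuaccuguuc
mmu-miR-199a-3p: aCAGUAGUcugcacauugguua

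Main start sites were defined as the 5′ ends of the principal transcripts of a gene in the APPRIS annotation, or of its transcript 201 where none is marked. A region was counted at a main start if any main start of its gene lay within 1 kb, even if another start was nearer. This held for 795 regions (78.6%), 5.58 points more than for proximal-only promoter peaks (73.1%, interval 1.42 to 9.83 points). The difference from shared promoter peaks (90.4%) was -11.7 points (interval -14.4 to -9.25 points). Restricted to transcripts of the basic set of GENCODE, the difference from proximal-only peaks was -0.37 points (interval -3.31 to 2.83 points), so its direction depended on which transcripts were counted. In the wide-peak setting it was 0.75 points (interval -2.40 to 4.01 points). Among the 818 regions at protein-coding genes, 614 were at main and 204 at alternative starts. The distal peak covered the start itself in 722 regions (71.4%), which exceeded the 57.9% of proximal-only peaks by 13.5 points (interval 8.81 to 18.1 points) and fell below the 90.8% of shared peaks. It lay entirely upstream in 141 and entirely downstream in 148 regions, at a median distance of 445 bp from the start.

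**Figure D3:**
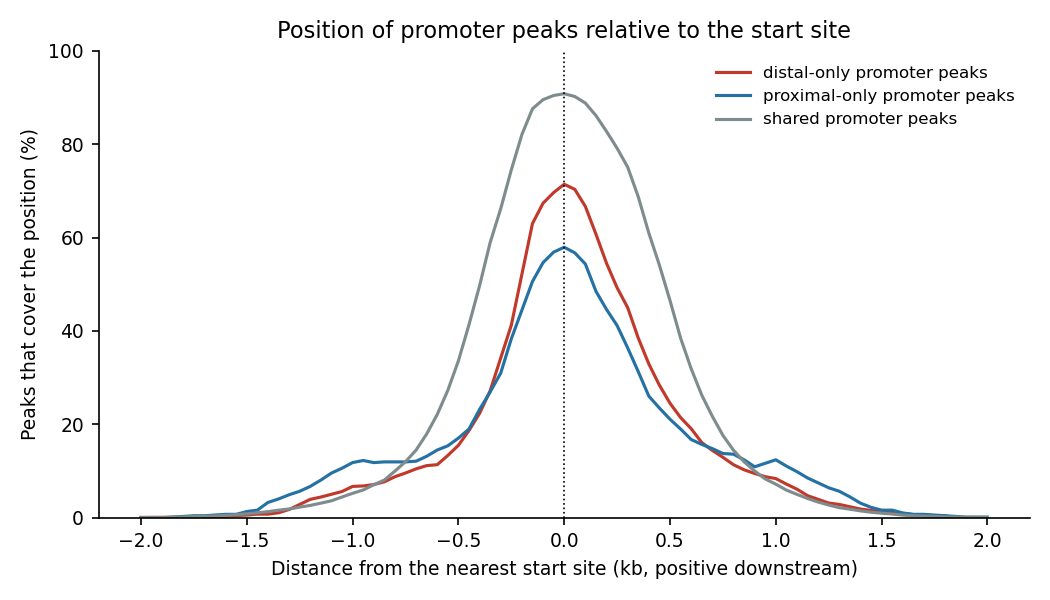
Percentage of peaks that cover each position around the nearest start site (kb, positive downstream), for distal-only (red), proximal-only (blue) and shared (grey) promoter peaks. At the start the curves stand at 71.4%, 57.9% and 90.8%, and 500 bp downstream at 24.5%, 21.1% and 46.5%.

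For most regions, no promoter peak of the gene was present in both lists. The size of this share depended on the transcripts counted and differed in the wide-peak setting. A promoter peak present in both lists was found elsewhere in the gene for 265 regions (26.2%), a proximal-only promoter peak without a shared one for 17 (1.68%), and for 729 (72.1%) the gene had no promoter peaks other than distal-only ones. The share of 26.2% was 16.8% when only basic transcripts were counted and 12.3% in the wide-peak setting. The share with a shared promoter peak was 29.8% for proximal-only peaks, a difference of -3.58 points (interval -8.01 to 0.78 points). With start sites of protein-coding genes alone the difference was -8.25 points (interval -13.6 to -2.88 points), and with start sites within 500 bp and 3 kb it was -4.74 and -4.13 points, with intervals that left out 0. With basic transcripts and in the wide-peak setting it was 1.41 and 0.33 points, with intervals that included 0. The share also differed by the kind of start. At main starts of protein-coding genes, 121 of 614 regions (19.7%) were in genes with a shared promoter peak and 485 (79.0%) in genes with distal-only promoter peaks alone. At alternative starts, 133 of 204 (65.2%, 95% Wilson interval 58.4 to 71.4%) were in genes with a shared promoter peak, and 63 (30.9%) in genes with distal-only peaks alone. Proximal-only peaks at protein-coding genes were split in a similar way. Of these, 21.6% at main and 72% at alternative starts were in genes with a shared promoter peak. The split is therefore not particular to the distal-only regions. By definition, a peak at an alternative start has every main start of its gene more than 1 kb away, which contributes to the split. In 111 of 121 regions at long noncoding RNA genes (91.7%) and all 34 at pseudogenes, the gene had no other kind of promoter peak. The same held for most proximal-only peaks, for 97 of 112 (86.6%) at long noncoding RNA genes and 41 of 42 (97.6%) at pseudogenes.

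The gap to the shared promoter peak of the same gene had a lower median at main than at alternative starts, with wide spreads that overlapped. The definition of the starts contributes to this, since every main start of the gene lay more than 1 kb from a region at an alternative start. The gaps are therefore given as a description. The median was 956.5 bp for 128 regions at main starts and 24392 bp for 135 at alternative starts, over the 263 regions for which the distal copy of the shared peak lay within 1 kb of a start. At main starts the gaps reached from 37 to 538657 bp, with an upper quartile of 12846 bp, and at alternative starts from 231 to 1983989 bp, with a lower quartile of 8922 bp. Creb5 (285406 bp) and Tns1, an adaptor of focal adhesions (87133 bp), were among the main starts with a remote shared peak. A close pair was seen at Ppp1r3b, a glycogen-targeting phosphatase subunit, where the gap was 37 bp, the smallest of all. Remote pairs included Vgll4, a cofactor of TEAD factors, with a peak of 1591 bp at an alternative start 46227 bp from the shared one, and Cntnap2, where a region at an alternative start lay 1983989 bp from the shared peak. Among the 10 widest regions at protein-coding genes, Efs (1591 bp), Cmtm4 (1502 bp), Ldlrad4 (1355 bp), Ugt8a (1347 bp), Htr1b (1346 bp) and Nt5c2 (1339 bp) had main starts and no promoter peak of any other kind. Lamb1 (1416 bp), which encodes a laminin chain of basement membranes, had a shared promoter peak 9154 bp away, and Prkg1 (1375 bp) had a proximal-only one.

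Most regions were well separated from proximal peaks. The median gap to the nearest proximal peak was 15211 bp, with 55 regions (5.44%) within 500 bp and 817 (80.8%) within 50000 bp. Gaps and widths come from the calling that chose the regions and are given as a description. The median width was 581 bp, against 545.5 bp for proximal-only and 908 bp for shared promoter peaks and 473 bp for distal-only peaks farther from start sites. Only 121 regions (12.0%) were as wide as the median shared promoter peak. At the limits of the rule, the farthest regions from a start were those of Mir466i (997 bp), Tmem181b-ps (986 bp) and Ccdc88c (973 bp), and distal-only peaks near Gm11655 (1007 bp), Spryd4 (1011 bp) and Klk2-ps (1012 bp) lay just outside. The smallest gaps to a proximal peak were those of Ppp1r3b (37 bp), Dnm3os (39 bp) and 4933439C10Rik (65 bp). Among shared promoter peaks, those of Abcc1 (213 bp), Tlr6 (238 bp) and Gm13345 (245 bp) had the smallest overlaps in bases. These peaks were narrow (268, 272 and 250 bp), and most of each was overlapped. By percentage of the distal peak covered by its largest proximal overlap, the lowest value among shared promoter peaks was 24.7% and the median 97.4%. By chromosome, distal-only peaks made up between 4.17% of the distal promoter peaks on chromosome 3 (29 of 696) and 12.6% on chromosome 15 (67 of 530, 95% Wilson interval 10.1 to 15.7%). The lists held 0 peaks on the X chromosome.

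Base composition placed the regions between proximal-only and shared promoter peaks. A start was called CpG-rich when the 500 bp around it had a G+C content of at least 55% and a ratio of observed to expected CpG of at least 0.6. By this measure 448 of 1011 starts (44.3%, 95% Wilson interval 41.3 to 47.4%) were CpG-rich. The share was 18.1 points above that of proximal-only promoter peaks (26.2%, 95% Newcombe interval of the difference 13.5 to 22.5 points) and differed by -26.1 points from that of shared promoter peaks (70.4%, interval -29.2 to -22.9 points). The difference from proximal-only peaks was smaller within 1 kind of gene and start. At main starts of protein-coding genes where the peak covered the nearest start, 64.1% of 507 distal-only and 56.6% of 242 proximal-only peaks were CpG-rich, a difference of 7.49 points with a lower bound of 0.05 points. At starts of other gene types the shares were 15.03% and 4.02%. In the wide-peak setting, in which the regions are not a subset of the 1011, the difference over all starts was 2.32 points (interval -2.33 to 6.97 points).

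**Figure D4:**
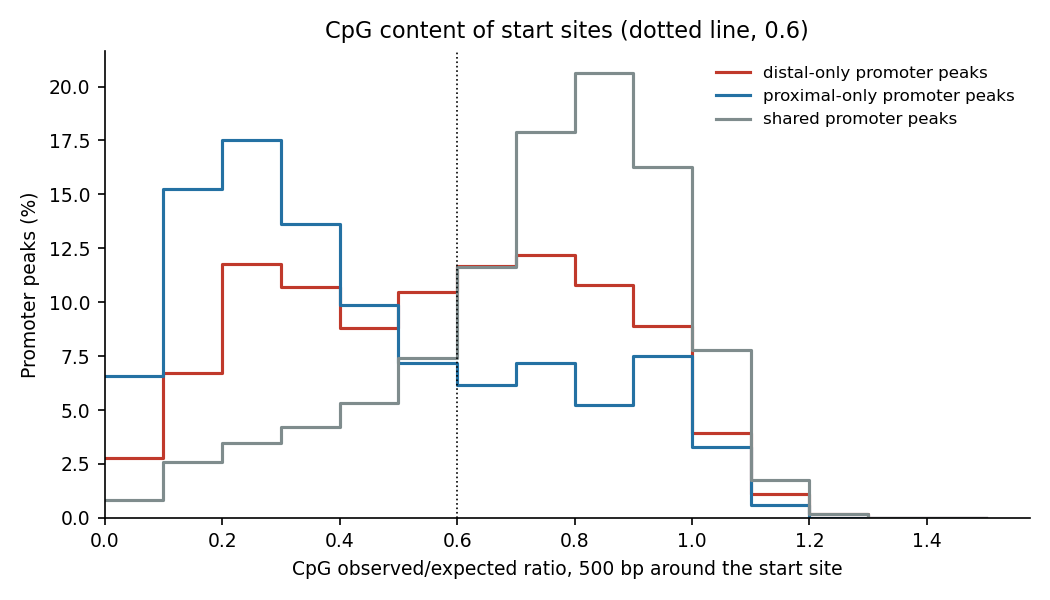
Ratio of observed to expected CpG in the 500 bp around the start site, as the percentage of each set of promoter peaks per bin of 0.1. The medians were 0.585 for distal-only, 0.373 for proximal-only and 0.782 for shared promoter peaks, and the dotted line marks the limit of 0.6.

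The named genes fell into both classes. Fzd6, Tcf7l2, Notch1, Dlk1, Wnt2b, Creb5, Tbx2, Emx2, Barx2, Dlx5, Comp, Col9a2 and Col27a1 had CpG-rich starts. At Tcf7l2 the ratio was 1.08 and at Fzd6 it was 0.918, with a G+C content of 76.4%. Wnt16 (ratio 0.323), Col11a2 (0.368), Tgfb2 (0.468), Snorc (0.216), Tek (0.214) and Myl1 (0.172) had starts below the limit. A start was called divergent if it belonged to another gene on the opposite strand, at or upstream of the nearest start. Such a start lay within 1 kb of the peak for 69 regions (6.82%), against 6.44% of proximal-only and 16.5% of shared promoter peaks. The difference from shared peaks was -9.70 points (interval -11.2 to -7.85 points).

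**Figure D5:**
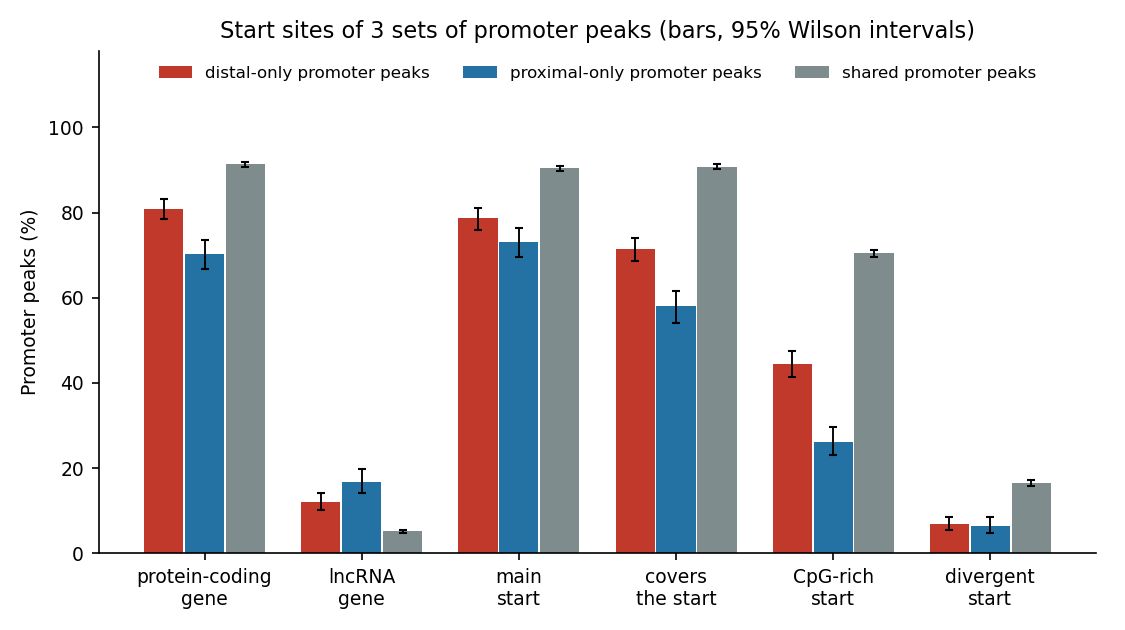
Percentage of promoter peaks at protein-coding genes, at long noncoding RNA genes, at main starts, over the start itself, at CpG-rich starts and with a divergent start of another gene within 1 kb, for distal-only (red), proximal-only (blue) and shared (grey) peaks. Error bars are 95% Wilson intervals, and for CpG-rich starts the bars stand at 44.3%, 26.2% and 70.4%.

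Motifs were counted as exact matches on either strand in the 200 bp around the peak centre. The GC box (GGGCGG), the core of SP and KLF factor sites, was present in 408 regions (40.4%), against 24.7% of proximal-only and 52.5% of shared promoter peaks, 15.7 points more than in the proximal-only set (interval 11.1 to 20.02 points). At main starts of protein-coding genes this difference was 10.6 points (interval 3.80 to 17.3 points). The median G+C content of these windows also differed, at 62% for distal-only, 53.5% for proximal-only and 65.5% for shared promoter peaks. The AP-1 sequence TGAGTCA, bound by dimers of FOS and JUN proteins, stood in the opposite order. It was present in 88 regions (8.70%), against 20.7% of proximal-only promoter peaks, a difference of -12.0 points (interval -15.6 to -8.49 points), and against 4.65% of shared ones, a difference of 4.05 points (interval 2.42 to 5.98 points). At main starts of protein-coding genes the shares were 5.21% and 8.85% for distal-only and proximal-only peaks (difference -3.64 points, interval -7.65 to -0.25 points). The sequence TGTGGTT of RUNX factors was present in 1.29% of regions and 4.34% of proximal-only peaks (difference -3.06 points, interval -4.96 to -1.47 points). At main starts of protein-coding genes this difference was -1.65 points, with an interval that included 0 (-4.29 to 0.22 points). The TATA box (TATAAA) was present in 3.86% and 6.89% (difference -3.03 points, interval -5.43 to -0.86 points). For the CCAAT box, the ETS sequence CCGGAAG, the cores of NRF1 (CATGCGC), YY1 (ATGGCGG) and CTCF (AGGGGGCGC) sites, the CRE (TGACGTCA), the E-box CACGTG and the SOX sequence ACAATGG, the interval of the difference from proximal-only peaks included 0. Against shared promoter peaks, the ETS sequence was less frequent (4.45% against 11.1%, difference -6.60 points, interval -7.85 to -5.05 points), and so were the YY1 core (4.06% against 7.19%) and the CCAAT box (18.4% against 23.6%). The CTCF core (2.67% against 1.28%, interval of the difference 0.53 to 2.59 points) and the TATA box (3.86% against 2.43%, interval 0.37 to 2.83 points) were more frequent than in shared peaks. At main starts of protein-coding genes, the intervals of the differences from shared peaks included 0 for the YY1 core (-3.82 to 0.17 points), the CTCF core (-0.11 to 2.28 points) and the TATA box (-0.41 to 2.30 points). None of the 12 motifs contains another, but neighbouring matches can share bases, as the GC boxes of Tcf7l2 do. A match describes the sequence and does not show that a factor was bound.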

How the data were processed

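ATAC-seq libraries of 50000 growth plate cells from either end of E15.5 mouse femurs had been made by the authors in 2 biological replicates per end. Reads were aligned to mm10 with Bowtie2 (2.2.8 in the submitters' processing notes), duplicates were removed, peaks were called with MACS2 (2.1.1 in these notes), and peaks reproducible between replicates by the irreproducible discovery rate were kept. The deposited files hold chromosome, start and end of each peak, 1 list per end, with no signal, score or depth, and these positions are the only values used. Starts were read as 0-based and are given 1-based.

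Overlaps, distances to 134417 autosomal start sites of GENCODE M21, base composition (GRCm38.p6) and exact motif matches were computed in Python 3.11.15 with numpy 2.4.6, scipy 1.17.1 and matplotlib 3.10.9. Ties for the nearest start went to protein-coding genes, then main starts, then the first symbol. Promoter peaks were defined by the GENCODE start sites alone. RefSeq tables gave the mature miRNAs and, for comparison only, promoter entries. Of the 1011 regions, 665 had a RefSeq promoter entry for the gene symbol, and 422 overlapped it. The classification was tested on simulated peaks. With 1 list per end no test was run, and shares carry 95% Wilson and differences 95% Newcombe intervals, which cover counting error only. Differences in sequencing depth or peak calling between the ends cannot be told apart from differences in accessibility.

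The regions and the gene lists, drawn from general knowledge, were chosen with earlier results of these data known. Genes were named if they were on a list (up to 30 genes, then by width), had the 10 widest peaks, had several regions, lay nearest the limits of the rule, or had up to 4 of the widest peaks of a family or gene type. Other members of the gene families were named after their values were seen. A gene that this rule names is not reported here. Alternatives covered the overlap, the distance, the transcripts, the peak width, the definition of main starts, the genes considered and the windows.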

Additional observations from a re-analysis of the deposited data

How the results depend on the processing

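No paired analysis was possible because the replicates of each femur end were combined into 1 list, and no replicate could be left out. The number of 1011 regions stayed between 835 and 1362 under the 8 alternatives that could change it, within 1.5 times. The share at protein-coding genes (80.9%) was 75.2% with start sites within 3 kb, 77.7% with basic transcripts, 89.7% with wide peaks (narrower ones dropped from both lists before overlaps were called) and, by construction, 100% with protein-coding starts only. The share at main starts (78.6%) was 74.7% with protein-coding starts only, 91.1% with basic transcripts, 87.3% with wide peaks, 73.0% with transcript 201 as the main start and 74.9% with the outermost start. The share of regions with a shared promoter peak elsewhere in the gene (26.2%) was 22.4% without proximal peaks within 500 bp, 21.6% and 33.5% with start sites within 500 bp and 3 kb, 31.4% with protein-coding starts only, 16.8% with basic transcripts and 12.3% with wide peaks. The share of CpG-rich starts (44.3%) was 48.9% with a reciprocal overlap of 50%, 47.7% and 36.1% with start sites within 500 bp and 3 kb, 47.9% by the peak centre, 51.1% with protein-coding starts only, 48.4% with basic transcripts, 59.9% with wide peaks and 36.9% in 1000 bp windows. Of the differences from proximal-only peaks, that in main starts became -0.37 points with basic transcripts, and that in shared promoter peaks elsewhere became 1.41 points with basic transcripts and 0.33 points with wide peaks. In these 3 the interval included 0, as it did for main starts with wide peaks (0.75 points) and with transcript 201 (3.84 points). So did that for CpG-rich starts with wide peaks (2.32 points). For shared promoter peaks elsewhere the interval also included 0 in the main setting (-3.58 points). It did so too with a reciprocal overlap of 50%, without proximal peaks within 500 bp, by the peak centre and with every gene within the distance. All differences other than the first 3 kept their direction, except that the one in gene type is 0 by construction with protein-coding starts only. With wide peaks the difference in gene type was 3.66 points. The causes of these changes were not tested. In whole peaks instead of 200 bp, every motif was more frequent, for example the GC box in 62.7% and the AP-1 sequence in 17.0% of regions. With 1 list per end and no scores, depth could not be examined from the lists. The sequencing quality statistics that the paper provides were not used.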
